A study of Mus musculus with 6 samples.

Results

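A set of genes known to respond to glucocorticoids or to fasting was followed in the nasal epithelium of newborn Atf5 knockout mice and their wild-type counterparts. Atf5 encodes an ATF/CREB family transcription factor. The 10 genes are Zbtb16, Pdk4, Hif3a, Fkbp5, Tsc22d3, Per1, Klf9, Errfi1, Sgk1 and the glucocorticoid receptor gene Nr3c1, of 19937 genes measured. The list was selected on the measured differences between knockout and wild type of Zbtb16 and Pdk4, which were among the largest increases. The others were added for what they are known to respond to, with results of this contrast already known. Each of the 10 was read by 1 probe set with a single gene symbol, and all 10 were measured. No filter on low values was applied.

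Septa and turbinates of the nose were collected on postnatal day 0 from C57BL6 pups born to intercrossed Atf5+/- mice. Homozygous knockout (Atf5-/-) and wild-type (Atf5+/+) pups were compared, with 3 samples per genotype, each pooled from 3 pups of different litters and hybridised to 1 array. The labels name no hormone or drug treatment, no feeding state and no hour of collection. All values are expression levels on a log2 scale, so a difference of 1 is a doubling, and levels of different genes are not comparable because each probe set has its own brightness.

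Glucocorticoid hormones act through the receptor encoded by Nr3c1, which waits in the cytoplasm with heat shock proteins, enters the nucleus once it binds hormone, and raises transcription at paired copies of a short DNA element. Tsc22d3, Fkbp5, Per1, Klf9, Zbtb16, Errfi1 and Sgk1 are classic targets in many tissues. Pdk4 responds both to glucocorticoids and to fasting, when cells turn from glucose to fatty acids.

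Promoter windows were searched for the letters of such elements, and the excerpts below are shown because they place the receptor's own element beside Sgk1, which overlapped between genotypes. RefSeq windows of build GRCm38.p6, from 250 bases before to 50 bases after an annotated start, were at hand for 8 of the 10 genes and for 17 starts. Each excerpt has 60 bases upstream of 1 start, written 5′ to 3′ on the strand of the gene, with the matched letters in capitals.
Sgk1 (chr10:21993678-21993737, plus strand): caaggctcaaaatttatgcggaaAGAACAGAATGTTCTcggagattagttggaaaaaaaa
Tsc22d3 (chrX:140600675-140600734, minus strand): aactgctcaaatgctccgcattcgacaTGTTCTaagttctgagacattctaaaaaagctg
Errfi1 (chr4:150854993-150855052, plus strand): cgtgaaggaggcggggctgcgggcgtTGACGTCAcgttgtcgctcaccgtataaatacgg
Per1 (chr11:69098756-69098815, plus strand): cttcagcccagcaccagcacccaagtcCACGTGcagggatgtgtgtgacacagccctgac
Fkbp5 (chr17:28486286-28486345, minus strand): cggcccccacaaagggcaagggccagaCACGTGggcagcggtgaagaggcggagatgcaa
Klf9 (chr19:23141099-23141158, plus strand): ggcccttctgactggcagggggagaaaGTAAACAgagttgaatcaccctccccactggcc

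The capitals of Sgk1 are a full palindromic glucocorticoid response element, the half-site AGAACA followed after 3 bases by its reverse complement TGTTCT, beginning 189 bases before 1 of the gene's 6 starts. This arrangement was present in 3 of 32841 windows of the same length over all genes, or 0.00913%. The half-site alone, on either strand and counted inside the full element too, was present in windows of Tsc22d3 and Sgk1 and in 6232 of the 32841 windows. The other motifs were searched on both strands as well. The cyclic AMP response element TGACGTCA was found 51 bases before a start of Errfi1 (1.79% of all windows). The E-box CACGTG, which clock proteins bind, was found in 3 of the 17 windows, of Per1, Fkbp5 and Sgk1 (7.15% of all windows). The forkhead motif TGTTTAC, printed above on its other strand, was found in that of Klf9 (3.65%). None of these letters was present in the windows of Pdk4 and Hif3a. A match describes the letters in these windows and is not evidence of binding. Bases outside the windows were not searched, so elements of any of the genes that lie there would not be seen. Only exact letters were matched, so variant forms of an element inside the windows would not be seen either.

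Levels of 8 of the 10 genes were higher in every knockout array than in every wild-type array, by 1.23-fold to 1.73-fold. Sgk1 and Nr3c1 overlapped between the genotypes. Over all genes, 10.8% lay higher in every knockout array and 10.3% lower, and nothing is read from the comparison because the list was drawn up from this contrast. For the same reason the values of the 10 genes are given as a description, with standard errors (SE) from limma.

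Zbtb16, a zinc finger transcription factor also known as PLZF, had levels of 11.45, 11.20 and 11.30 in the knockout arrays 1, 2 and 3, and of 10.53, 10.56 and 10.49 in the wild-type arrays. Every knockout array lay well above the tightly grouped wild-type arrays. The difference was 0.79 (SE 0.07), or 1.73-fold (95% interval 1.54 to 1.94), the second largest among the 100 genes called higher.

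Pdk4 encodes a mitochondrial kinase that inhibits pyruvate dehydrogenase and so spares glucose. On knockout arrays it measured 10.18, 10.12 and 10.08, against 9.76, 9.59 and 9.50 on wild-type arrays. The knockout arrays lay close together and the wild-type arrays were more spread, without overlap. The difference was 0.51 (SE 0.08), or 1.42-fold (1.26 to 1.61), which ranked 12 among the 100 genes called higher.

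Among regulators of the hormone's own signal, Fkbp5 encodes a co-chaperone that lowers the receptor's affinity for hormone. It measured 10.45, 10.36 and 10.14 on knockout arrays, against 10.10, 9.92 and 9.85 on wild-type arrays. Knockout array 3 was only slightly above wild-type array 1, and the difference was 0.36 (SE 0.10). Tsc22d3 encodes GILZ, a mediator of anti-inflammatory effects of these hormones, and measured 10.35, 10.32 and 10.22 against 9.97, 9.96 and 9.62. Wild-type array 3 was the low one, and the difference was 0.44 (SE 0.10).

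Per1, a repressor in the circadian clock, measured 11.38, 11.09 and 11.23 against wild-type levels of 10.92, 10.90 and 10.82, a difference of 0.35 (SE 0.08). Klf9, a Krüppel-like transcription factor, measured 11.20, 10.96 and 10.92 against 10.61, 10.68 and 10.49, a difference of 0.43 (SE 0.09). For both genes the groups were apart and knockout array 1 was the highest. Errfi1, a feedback inhibitor of the epidermal growth factor receptor, measured 11.74, 11.48 and 11.63 against 11.38, 11.25 and 11.34, the smallest of the 8 differences without overlap at 0.29 (SE 0.08).

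Hif3a, a member of the hypoxia-inducible factor family, measured 10.31, 9.86 and 9.82 against wild-type levels of 9.71, 9.47 and 9.34. It was the most variable of the 10 genes within a genotype, with a pooled SD of 0.231 that exceeded the SD of 97.4% of all genes. Its difference of 0.49 (SE 0.14) was close in size to that of Pdk4, whose pooled SD was 0.0999.

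Sgk1, a kinase that regulates ion channels and transporters, measured 10.79, 10.52 and 10.45 on knockout arrays, against 10.54, 10.54 and 10.41 on wild-type arrays. Apart from knockout array 1, the arrays of both genotypes mixed, and the difference was 0.09 (SE 0.09, 95% interval -0.12 to 0.30). Without knockout array 1 the difference was -0.01. The receptor gene Nr3c1 measured 9.84, 9.81 and 9.71 against 9.81, 9.84 and 9.68, a difference of 0.01 (SE 0.07, 95% interval -0.14 to 0.17). These intervals do not show that the levels were equal, but for Nr3c1 they leave room for a change of at most 1.12-fold upward.

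**Figure D1:**
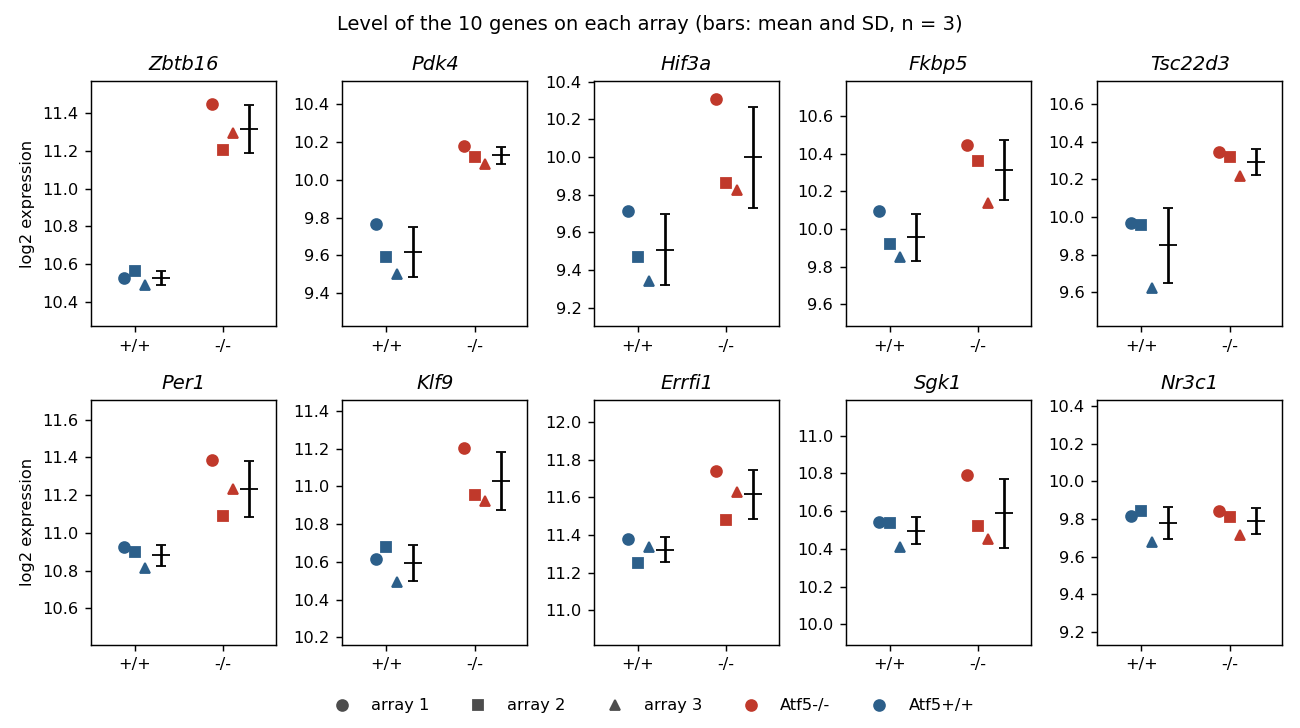
Log2 expression of each of the 10 genes on each array, with wild type in blue, knockout in red, the array number as the symbol, and the mean with SD (n = 3) beside the points; every panel spans the same range of log2 units. The knockout points lie above all wild-type points for 8 genes, while those of Sgk1 and Nr3c1 overlap.

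By limma with Benjamini-Hochberg adjustment over all 19937 genes, 5 of the 10 genes passed an adjusted p of 0.05, all higher in the knockout: Zbtb16, Pdk4, Tsc22d3, Per1 and Klf9. Over all genes 0.502% were called higher, 3.24% lower and 3.74% in either direction. In a fit with a replicate block, 8 of the 10 passed, with Hif3a, Fkbp5 and Errfi1 added, against 2.11% of all genes called higher and 6.57% called in either direction in that fit. Zbtb16 and Pdk4, on whose increases in this contrast the list was selected, kept their calls with any single array left out. The count among the 10 was 2 without knockout array 1, wild-type array 1 or wild-type array 3. It was 3 without knockout array 2 or wild-type array 2, and 4 without knockout array 3. Tsc22d3 lost its call without any 1 array, and the 4 without knockout array 3 were Zbtb16, Pdk4, Klf9 and Fkbp5. The 10 genes had a median difference of 0.40, beside 0.01 over all genes. These calls and this median are a description, since the list was drawn up from this contrast.

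Within each genotype the responsive genes also ranked the arrays alike. Of the 9 genes other than Nr3c1, all 9 were highest on knockout array 1 among the knockout arrays, and 8 were lowest on wild-type array 3 among the wild-type arrays, with Errfi1 as the exception. Nr3c1 was likewise highest on knockout array 1 (9.84) and lowest on wild-type array 3 (9.68), so this order was not particular to the responsive genes. Means of the other glucocorticoid targets, fasting genes and immediate early genes described below had both extremes on these arrays too. Those of the receptor machinery, clock, hypoxia-inducible and paralog lists did not. Over all genes 33.3% were highest on knockout array 1 among knockout arrays and 37.5% lowest on wild-type array 3 among wild-type arrays. The mean of the 10 genes came to 10.77, 10.57 and 10.55 on knockout arrays, against 10.33, 10.27 and 10.15 on wild-type arrays. Without knockout array 1 the mean difference was 0.31 in place of 0.38, and the 5 calls became 2. Taken by replicate number, the difference of Zbtb16 ranged from 0.64 to 0.93, that of Pdk4 from 0.42 to 0.58 and that of Hif3a from 0.39 to 0.59. Sgk1 ranged from -0.02 to 0.25, its highest value being that of number 1.

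**Figure D2:**
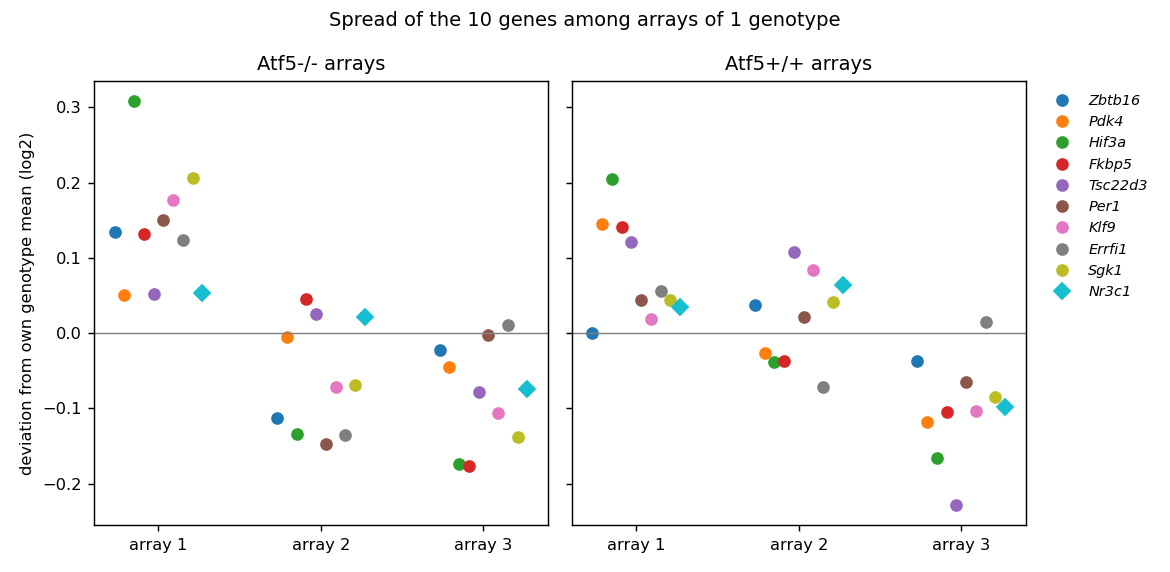
Deviation of each of the 10 genes from its mean in its own genotype, in log2 units, by array; the left panel shows the 3 knockout arrays and the right panel the 3 wild-type arrays. All 10 genes, Nr3c1 (diamond) included, lie above 0 on knockout array 1, and 9 of them lie below 0 on wild-type array 3.

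Knockout array 1 also stood apart in immediate early genes, transcripts that many stimuli, handling of tissue among them, induce within minutes. Their mean over 15 genes was 9.64 on knockout array 1 and between 9.26 and 9.31 on the other 5 arrays. Fos measured 9.01 there and between 8.36 and 8.69 elsewhere, and Egr1 9.77 there and between 8.93 and 9.07 elsewhere. Of the 15 genes, 1 rose, Ccn1 (listed also as Cyr61), a matricellular protein, by 0.44 (SE 0.10, limma adjusted p = 0.0468), and 14 did not pass, which is 6.67% called beside 3.74% of all genes. Fos differed by 0.00 (SE 0.15) and Egr1 by 0.33 (SE 0.16). The call of Ccn1 was kept without knockout array 2 and lost without any other single array (highest limma adjusted p = 0.174), as it was after quantile normalization (0.0632) and with a filter at the 30th percentile of the mean level (0.0521). Without knockout array 1 the mean difference of the immediate early genes was 0.02 in place of 0.13. That of the 10 genes was 0.31 in place of 0.38. Whether handling of the tissue had a part in the values of the 10 genes was not tested.

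Of 23 other measured targets of glucocorticoids 2 rose, none fell and 21 did not pass, which is 8.70% called beside 3.74% of all genes. The list median was 0.16 beside 0.01. Of the 23, 18 lay above 0 (53.0% of all genes) and 8 were at an unadjusted p under 0.05 (16.1% of all genes). Ddit4, an inhibitor of mTOR complex 1, measured 10.20, 10.25 and 9.996 against wild-type levels of 9.79, 9.67 and 9.86, a rise of 0.38 (SE 0.08, limma adjusted p = 0.0408). The imprinted cell cycle inhibitor Cdkn1c measured 10.95, 11.09 and 11.11 against 10.70, 10.77 and 10.77, a rise of 0.30 (SE 0.07, limma adjusted p = 0.0407). In 8 of the 23 genes all knockout arrays lay above all wild-type arrays, and in 0 below, beside 10.8% and 10.3% of all genes. Dusp1, a phosphatase that inactivates MAP kinases, was at 0.23 (SE 0.13) with its highest level, 11.99, on knockout array 1; with 1 array left out it ranged from 0.06 (without knockout array 1) to 0.36 (without knockout array 3). The metallothioneins Mt1 and Mt2, which bind zinc and are induced by the hormone, were at 0.09 each. Ddit4 kept its call without knockout array 3 and Cdkn1c without knockout array 1, and both lost it without any other single array (highest limma adjusted p = 0.147 for Ddit4 and 0.170 for Cdkn1c). Median centring ended the call of Ddit4 (limma adjusted p = 0.0562) and quantile normalization that of Cdkn1c (0.0805).

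Of 12 measured genes that act on the receptor or its hormone, 0 passed by limma in either direction, beside 3.74% of all genes. The same share applies to the fasting, clock, hypoxia-inducible and paralog lists below. At an unadjusted p under 0.05 there were 0, beside 16.1% of all genes, and the median was 0.01. The list includes Nr3c2, the mineralocorticoid receptor, at -0.04 (SE 0.09), and Hsd11b1, the enzyme that regenerates active hormone, at -0.01 (SE 0.06). The chaperone Hsp90aa1, which holds the receptor ready for hormone, had the lowest p and was at 0.14 (SE 0.07, limma adjusted p = 0.365).

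Pdk4 stood beside other genes of the fasting response. Of 27 measured genes of fat oxidation, gluconeogenesis and the forkhead response, 0 passed by limma, 2 were at an unadjusted p under 0.05 (16.1% of all genes), and the median was 0.05. Cpt1a, which admits fatty acids to mitochondria, was at -0.06 (SE 0.11), and Angptl4, a lipoprotein lipase inhibitor induced by fasting, at -0.17 (SE 0.13). The value of Angptl4 was -0.31 without knockout array 1, -0.07 without knockout array 2 and -0.06 without wild-type array 1. Foxo3, a forkhead factor active when insulin is low, was at 0.24 (SE 0.06, limma adjusted p = 0.0553; 0.0462 with the replicate block). The other pyruvate dehydrogenase kinases were at 0.23 (SE 0.09) for Pdk1, 0.11 (SE 0.07) for Pdk2 and 0.11 (SE 0.06) for Pdk3, beside 0.51 for Pdk4. Whether they differ from Pdk4 was not tested.

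Per1 stood among clock genes of which 0 of 16 passed by limma, with a median of 0.07. Of the 16, 5 were at an unadjusted p under 0.05 (16.1% of all genes) and 13 lay above 0 (53.0% of all genes). The other period genes Per2 and Per3 were at 0.10 (SE 0.07) and -0.00 (SE 0.10). The activators Arntl, also called Bmal1, and Clock were at -0.03 (SE 0.09) and -0.09 (SE 0.08). Nfil3, a repressor with the lowest p of the list, was at 0.28 (SE 0.09, limma adjusted p = 0.170), and it passed without knockout array 3 (limma adjusted p = 0.0284). Ciart, another clock repressor, passed without wild-type array 3.

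Hif3a stood beside hypoxia-inducible genes of which 0 of 16 passed by limma, 6 being at an unadjusted p under 0.05, with a median of 0.16 and 14 values above 0, beside 16.1% and 53.0% of all genes for these 2 counts. Vegfa, the vascular growth factor, was at 0.31 (SE 0.08, limma adjusted p = 0.0802), P4ha1, a collagen prolyl hydroxylase subunit, at 0.32 (SE 0.08, limma adjusted p = 0.0596) and the mitophagy receptor Bnip3 at 0.00 (SE 0.10). With the replicate block Vegfa and P4ha1 passed (limma adjusted p = 0.0450 and 0.0139). The alpha subunits Hif1a and Epas1 were at 0.00 (SE 0.06) and -0.12 (SE 0.08). Over the 18 measured paralogs of the 10 genes, 0 passed by limma, 3 were at an unadjusted p under 0.05 (16.1% of all genes), and the median was 0.09. Klf15, a Krüppel-like factor that is itself a hormone target, had their lowest p at 0.24 (SE 0.08, limma adjusted p = 0.158).

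**Figure D3:**
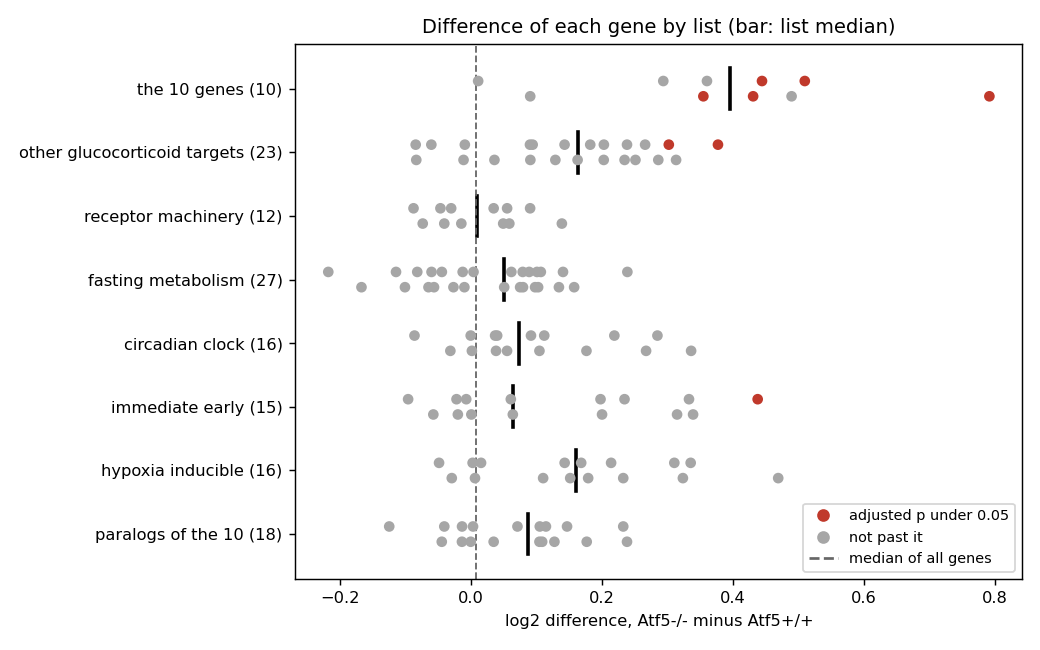
Log2 difference of each gene, knockout minus wild type, by list, with the number of measured genes in brackets; red points passed a limma adjusted p of 0.05, black bars are list medians and the dashed line is the median of all genes. The median of the 10 genes lies at 0.40 and those of the other lists drawn here between 0.01 and 0.16. Cell type marker lists are not drawn. Of these, skeletal muscle had a median of 0.42, endothelium 0.22, macrophage 0.18 and bone 0.18, and the others were lower.

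The genes most like Zbtb16 in their values over the 6 arrays, each gene centred on its own mean, were Slc7a3, an amino acid transporter (root mean square difference 0.12), the olfactory receptor Olfr330 (0.14) and Pdk4 itself (0.17). Those most like Pdk4 were Nt5dc2 (0.06), Olfr330 (0.06) and the collagen lysyl hydroxylase Plod2 (0.06). All of these were called higher in the knockout, and with 6 arrays in 2 groups the measure mostly reflects the size of the genotype difference.

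Levels of cell type markers differed between the genotypes for some lists. Markers of mature olfactory sensory neurons, such as Omp and Gnal, were called lower by limma in 8 of 8 cases, beside 3.24% of all genes. Their mean was 9.07 to 9.24 in the knockout and 10.8 to 11.1 in the wild type. In such bulk samples fewer cells of a type and less RNA per cell cannot be told apart. Beside the counts that follow, 53.0% of all genes lay above 0, 16.1% were at an unadjusted p under 0.05 and 3.74% were called by limma. Endothelial markers lay above 0 in 6 of 6, with 0 called by limma and 4 at an unadjusted p under 0.05, and a mean of 10.08 to 10.10 against 9.80 to 9.97. Macrophage markers lay above 0 in 6 of 6, with 0 called by limma and 3 at an unadjusted p under 0.05, and a mean of 9.35 to 9.46 against 9.18 to 9.26. Skeletal muscle markers lay above 0 in 8 of 8, with 0 called by limma and 2 at an unadjusted p under 0.05, and a mean of 9.72 to 10.07 against 8.77 to 9.85. The low muscle value, 8.77, belonged to wild-type array 1, on which 7 of the 9 responsive genes had their highest wild-type level. Without that array the muscle difference was 0.12 in place of 0.45, and that of the 10 genes 0.42 in place of 0.38. Bone markers lay above 0 in 5 of 5 and cartilage markers in 6 of 7, with overlapping array means and 0 calls by limma (0 at an unadjusted p under 0.05 in both lists). Adipocyte markers differed by 0.08 in their mean, sustentacular markers by -0.14, respiratory markers by 0.01 and erythroid markers by 0.09, all with overlapping arrays. The sustentacular difference was -0.24 without knockout array 1 and 0.00 without wild-type array 1. Enamel markers lay below 0 in 3 of 3, each with every knockout array below every wild-type array, beside 10.3% of all genes. Limma called 2 of them lower, beside 3.24% of all genes, and 3 were at an unadjusted p under 0.05. Their mean was 7.98 to 9.02 on knockout arrays against 9.41 to 11.6 on wild-type arrays. No value is at 0 on this scale, so no marker could be called absent, and the part of these cell types in the values of the 10 genes was not tested.

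**Figure D4:**
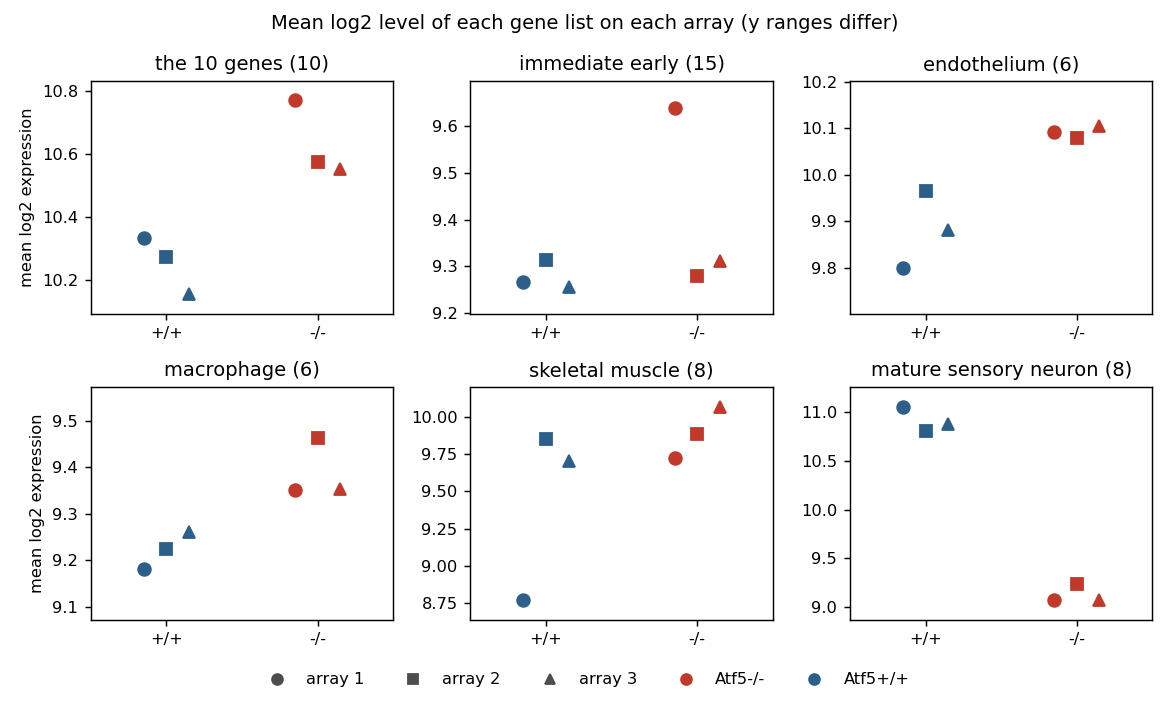
Mean log2 level over the genes of each list on each array, with wild type in blue, knockout in red and the array number as the symbol; the y ranges differ between panels. Knockout array 1 stands apart for the immediate early genes at 9.64, and wild-type array 1 for skeletal muscle at 8.77.

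Knockout arrays gave Atf5 a level of 9.46 ± 0.04 (SD, n = 3) and wild-type arrays 10.71 ± 0.22 (SD, n = 3), and no knockout array reached a wild-type array. Whether the probe set lies in the deleted part of the gene is not given in the sources used here. The 6 arrays had medians of 8.67 to 8.72 and correlated with each other at 0.988 to 0.994 over all rows. Precision is limited by the small number of arrays.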

How the data were processed

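RNA of 6 pooled samples was measured on 6 one-colour whole-transcript Affymetrix arrays. The submitters' processing notes name limma, affy and RMA with no version. The deposited values lay between 4.50 and 14.7 and were taken as log2 expression; the logarithm's base is not given in the sources used here. Such normalization can hide a change shared by most genes.

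Of 34760 rows, 21640 had 1 gene symbol in GEO's platform annotation, 1321 several and 11799 none. Rows with 1 symbol were used, and for the 954 genes with several the probe set of highest mean, which left 19937 genes. No column of other samples was present (0).

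Knockout and wild type were compared with limma 3.58.1 (lmFit, eBayes, no covariate) in R 4.3.3, 2-sided, adjusting over all genes by Benjamini-Hochberg, with calls at an adjusted p under 0.05. The procedure was tested on simulated data. The 10 genes and all lists were chosen with earlier results of these data known. Named from each list were its first 2 measured genes and up to 4 past the threshold or, with none, the gene of lowest p; other list genes (Mt1, Mt2, Pdk3, Per2, Per3, Hif1a, Epas1, Ciart, Zfp36) were named after their values were seen. Alternatives were the replicate block, quantile normalization, median centring, a filter at the 30th percentile, the mean of probe sets, a trended and robust prior, and each array left out.

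Deviations of same-numbered arrays from their genotype means correlated at 0.295, 0.122 and 0.234 for numbers 1, 2 and 3, over the minimum of 0.1 set for pairing. This comes from the data, since no label says what same-numbered samples have in common. The labels state no covariate, so the reported fit has no block, and the block is given as an alternative. Standard errors and intervals are from the fit without it. The labels call the samples biological replicates. Promoter windows were taken from RefSeq (GRCm38.p6) and searched with Python 3.11.15. Windows of Zbtb16 and Nr3c1 were not used here.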

Additional observations from a re-analysis of the deposited data

How the results depend on the processing

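With a replicate block, the calls were 1310 in all genes (745 without) and 8 among the 10 genes (5 without). They were 1 in fasting metabolism (0 without, Foxo3 added), 2 among immediate early genes (1 without, Zfp36 added) and 2 among hypoxia-inducible genes (0 without). No other list's count moved by over 1.5 times. A filter at the 30th percentile gave 432 calls in all genes, of 13956 kept, and 0 among immediate early genes. Quantile normalization gave 1 among other glucocorticoid targets (2 in the reported fit) and 0 among immediate early genes, and median centring gave 1 among other glucocorticoid targets. Quantile normalization and the filter each left 4 of the 10 genes, ending the call of Per1 (limma adjusted p = 0.0742 and 0.0562). Leaving out 1 array at a time gave 410 to 649 calls in all genes, 2 to 4 among the 10, 0 to 2 among other glucocorticoid targets, 0 to 1 among clock genes and 0 to 1 among immediate early genes. Fewer arrays enter those fits; the cause of the other moves was not tested. Some differences near 0 changed sign. With quantile normalization Nr3c1 was at -0.0184, Hsd11b1 at 0.0171 and Bnip3 at -0.0197. With 1 array left out, Sgk1 ranged from -0.0124 to 0.159, Nr3c1 from -0.0383 to 0.0484, Nr3c2 from -0.144 to 0.0142, Cpt1a from -0.167 to 0.0141, Arntl from -0.104 to 0.0415, Fos from -0.210 to 0.115 and Bnip3 from -0.108 to 0.0746. The 8 responsive genes whose arrays did not overlap stayed above 0 in all 12 alternatives. Nothing is read from this, because leaving out 1 array cannot change the sign where arrays do not overlap. The replicate block, the filter, the mean of probe sets and the trended prior left their differences as they were. Signal over background was not used here, so dim probe sets carry an unknown limit.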
